A study of Mus musculus with 9 samples.

Results

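The collagen chain genes encode the polypeptides from which every collagen of the extracellular matrix is built. They were taken as all genes whose symbol in the annotated table reads Col, a type number, a and a chain number, which gave 43 of the 24647 genes with a symbol. These 43 genes stand on 47 of 41345 transcript clusters, the units that the array summarises to 1 value each, and the brightest cluster of each gene by its mean over the 9 arrays was used. Expression was measured on 9 arrays, 1 for each dish of mouse embryonic fibroblasts (MEFs), the connective tissue cells of the embryo. The groups, each with 3 arrays, are lines titled vector control, human APE1 or mouse Ape1, which the header of the authors' table writes as MEF/vector, MEF/hAPE1 and MEF/mApe1. All 3 lines share the background given in the labels and the design text: mApe1-/-, with a human transgene (hAPE1TG), male and isogenic to C56BL/6. Ape1 is an endonuclease of base excision repair and a redox regulator of transcription factors. Its level in these cells is described as extremely low in the design text, and the vector control carries the same genotype. Cells were growing in medium with 10% fetal bovine serum. Ape1 itself is not analysed here. Embryo age, the vector with its promoter, and whether a line is 1 clone were each not given in the sources used here. Each group is 1 line, so a group cannot be told apart from its line, and every p-value reflects no more than the dish-to-dish spread of that line.

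A collagen molecule is a helix of several chains, which may be copies of a single gene product or come from different genes. Chains are hydroxylated and glycosylated in the endoplasmic reticulum, folded with the help of chaperones such as Serpinh1 (HSP47), exported in large carriers, trimmed of their propeptides and cross-linked outside the cell. Type I collagen, built from Col1a1 and, in lesser share, Col1a2, is the main fibril former of fibroblasts. Types III and V join these fibrils, type XII decorates their surface, type VI forms beaded filaments, type IV the sheets of basement membranes and type VIII short-chain networks.

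The chains of type I collagen, Col1a1 and Col1a2, changed in opposite directions in the mouse Ape1 line. In the human APE1 line Col1a1, Col1a2, Col3a1, Col4a2, Col6a1, Col6a2, Col11a1 and, by far the most, Col12a1 were lower than in vector control. Col5a2 was higher there. For Col6a1 the fall holds for the brightest of its 3 transcript clusters and not for another of them. In the mouse Ape1 line Col1a1 was also lower but its partner Col1a2 was higher. Col3a1, Col6a1, Col6a2, Col11a1 and, with the largest fall, Col12a1 were lower there too, and Col4a5 and Col8a1 were more than 2-fold higher. Of the 43 genes, 11 passed the test in human APE1 against vector control (2 higher, 9 lower), where 11.8% of all transcript clusters passed (5.4% higher and 6.35% lower). In mouse Ape1 against vector control 11 passed (4 higher, 7 lower), against 16.2% of all clusters (9.09% higher and 7.07% lower). Between human APE1 and mouse Ape1 10 passed (2 higher and 8 lower in human APE1), against 12.4% of all clusters (4.91% higher and 7.5% lower). These shares of the collagen genes, 25.6%, 25.6% and 23.3%, stand beside the background as a description, because the genes were picked with earlier results known. A gene passed when its limma p-value, with Benjamini-Hochberg adjustment across all clusters, was under 0.05. The comparisons with vector control share the vector control arrays, and each shares a group with the comparison of the lines. After array medians were subtracted, 35.9% in place of 46.0% of all clusters called in human APE1 against vector control were higher, and 44.5% in place of 56.2% in mouse Ape1 against vector control. With quantile normalization run again, 46.7% of those called in mouse Ape1 against vector control and 49.2% in place of 39.5% in human APE1 against mouse Ape1 were higher.

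**Figure D1:**
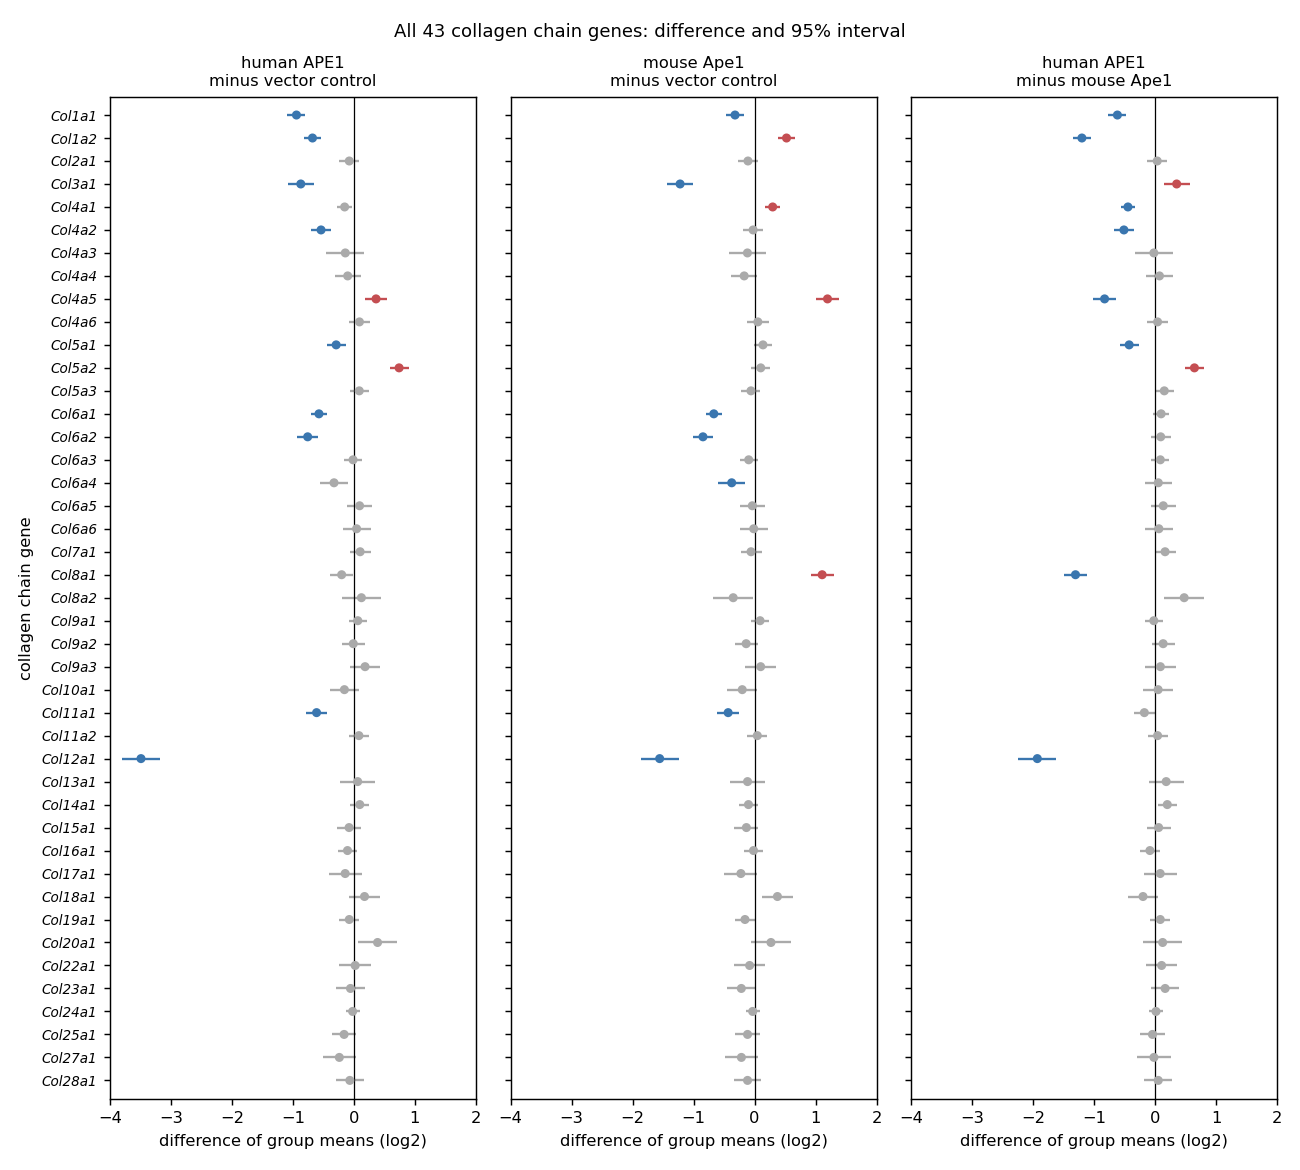
Difference of group means on the log2 scale (horizontal axis) for all 43 collagen chain genes (vertical axis) in the 3 comparisons, with 95% intervals as bars. Red marks genes that passed as higher, blue those that passed as lower and grey the others; Col12a1 lies farthest from 0 at −3.49 in human APE1 minus vector control.

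Most of the genes that passed were bright, as were most of all the clusters that passed. The mean over the 9 arrays was at or above that of the median transcript cluster (5.69 on the log2 scale) for 27 of the 43 genes and below it for 16. Of the 27 brighter genes, 10, 9 and 10 passed in the 3 comparisons, where 21.0%, 27.9% and 22.2% of all clusters of that brightness did. Of the 16 dimmer genes, 1, 2 and 0 passed (6.25%, 12.5% and 0.0%). Of all clusters 11.8%, 16.2% and 12.4% passed, and of the dimmer clusters alone a smaller share. No lack of calls is therefore read from the 16 genes. Of all 41345 clusters, 4859, 6681 and 5130 passed in the 3 comparisons. Of these, 4334, 5763 and 4594 were among the 20673 clusters at or above the median. The brightness of those that passed is thus not particular to the collagen genes. With all 3 groups in 1 moderated F-test, 14 of 43 passed (32.6%), against 20.4% of all clusters and 36.1% of those at or above the median. The 14 genes of the F-test are the same that passed in at least 1 comparison, and the 29 others passed in none. The median difference over all 43 genes was −0.08 in human APE1 and −0.10 in mouse Ape1 against vector control, and that over all clusters was 0.02 and 0.00 after rounding. With array medians subtracted the medians of the 43 genes were −0.13 and −0.17, and those of all clusters −0.04 and −0.07. With quantile normalization run again the medians of the 43 genes were −0.13 and −0.17 and those of all clusters −0.01 and −0.04.

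The label of embryonic fibroblasts was set against marker genes. Of 10 fibroblast markers, 9 were at or above the median cluster, Fap being the exception, and 6 were above the 75th percentile. Array means of this list were 8.38 to 8.42 in vector control, 7.93 to 8.01 in human APE1 and 7.89 to 7.97 in mouse Ape1. The platelet-derived growth factor receptor Pdgfra fell by 1.85 on the log2 scale in human APE1 and by 1.19 in mouse Ape1 against vector control, and the transcription factor Prrx1 fell by 1.86 in mouse Ape1. In all, 1 marker (Cd44) rose and 4 fell (Pdgfra, S100a4, Twist2 and Pdgfrb) in human APE1, and 2 rose (Twist1 and Vim) and 5 fell (Prrx1 and the same 4) in mouse Ape1. In these comparisons 11.8% and 16.2% of all clusters passed, and 21.0% and 27.9% of those at or above the median. Of 6 smooth muscle markers, 4 were at or above the median cluster and Cnn1 and Myocd below it, with array means of 7.59 to 7.76, 6.62 to 6.75 and 6.61 to 6.66 in the 3 groups in the same order. Acta2, smooth muscle actin, fell (−3.77 and −4.35) in human APE1 and mouse Ape1, and Tagln, an actin-binding protein, fell in both lines (−2.19 in human APE1 and −2.31 in mouse Ape1). Smtn, smoothelin, rose by 0.60 in mouse Ape1 against vector control (adjusted p = 0.000278). Of 8 cartilage markers only Sox9 was above the median cluster, while Acan, Comp, Matn1, Matn3, Hapln1, Ucma and Cnmd were below it, and the array means ran from 4.93 to 5.06 in all. The part of these shifts in the collagen results was not tested. Fewer cells of a type and less RNA per cell cannot be told apart in these arrays of whole dishes.

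**Figure D2:**
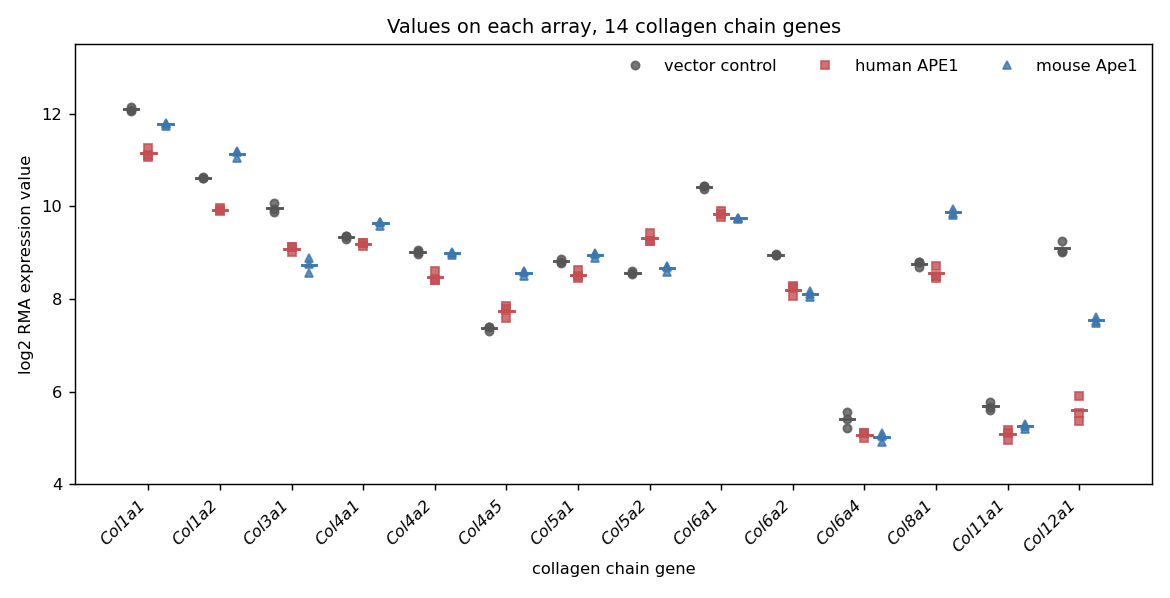
Log2 RMA expression values (vertical axis) of the 14 collagen chain genes that passed in at least 1 comparison (horizontal axis), with 1 point per array and a bar at each group mean. Vector control is shown as grey circles, human APE1 as red squares and mouse Ape1 as blue triangles. All mouse Ape1 points lie above vector control for Col1a2, Col4a1, Col4a5 and Col8a1, and also for Col5a1, which did not pass in that comparison.

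Among the fibril-forming chains the counts were 6 of 11 in human APE1, 4 of 11 in mouse Ape1 and 5 of 11 between both lines, where 11.8%, 16.2% and 12.4% of all clusters and 21.0%, 27.9% and 22.2% of those at or above the median passed. Col1a1, the chain that fills most places in type I collagen, read 12.08, 12.06 and 12.13 on the log2 scale in vector control, 11.26, 11.07 and 11.11 in human APE1 and 11.79, 11.74 and 11.78 in mouse Ape1. The groups did not overlap, with vector control highest and human APE1 lowest. Col1a1 was 1.92-fold lower in human APE1 than in vector control (log2 difference −0.94, SE 0.06, adjusted p = 8.29e-05). It was 1.25-fold lower in mouse Ape1 (−0.32, adjusted p = 0.0116) and lower in human APE1 than in mouse Ape1 (−0.62, adjusted p = 0.000558).

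Col1a2, the partner chain, took another order. It read 10.60, 10.60 and 10.62 in vector control, 9.97, 9.89 and 9.91 in human APE1 and 11.19, 11.03 and 11.17 in mouse Ape1, so that mouse Ape1 was highest on every array. Col1a2 was 1.6-fold lower in human APE1 (−0.68, SE 0.06, adjusted p = 0.000364) and 1.44-fold higher in mouse Ape1 than in vector control (0.52, SE 0.06, adjusted p = 0.000993). Human APE1 and mouse Ape1 differed 2.30-fold (−1.20, adjusted p = 2.19e-05). For Col1a2 vector control over mouse Ape1 stood at a ratio of 0.702 in the authors' deposited table. Within an array, the log2 value of Col1a1 minus that of Col1a2 averaged 1.49 ± 0.03 (SD, n = 3) in vector control, 1.22 ± 0.06 in human APE1 and 0.64 ± 0.06 in mouse Ape1. The size of such a difference has no meaning between separate probes, but its change does, and the 3 groups did not overlap. The balance moved towards the brighter Col1a2 cluster by 0.26 in human APE1 and 0.84 in mouse Ape1 (two-sided exact permutation p = 0.1 each, the smallest that 3 against 3 arrays allow). A dimmer Col1a2 cluster fell more than Col1a1 in human APE1 (−1.04 beside −0.94), so the move of 0.26 does not hold for it. In mouse Ape1 that dimmer cluster rose by 0.39 without a call (adjusted p = 0.234).

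Col3a1 encodes the single chain of type III collagen, a homotrimer found beside type I in soft connective tissue. Its values were 9.93, 9.88 and 10.06 in vector control, 9.12, 9.02 and 9.12 in human APE1 and 8.89, 8.56 and 8.75 in mouse Ape1. Mouse Ape1 was lowest and vector control highest, without overlap. Col3a1 was 1.83-fold lower in human APE1 (−0.87, SE 0.09, adjusted p = 0.000831) and 2.33-fold lower in mouse Ape1 (−1.22, SE 0.09, adjusted p = 0.000107). The difference between the 2 lines was small (0.35, adjusted p = 0.0452) and no longer passed without any 1 of the vector control arrays, the human APE1 arrays or mouse Ape1 replicates 2 or 3 (adjusted p = 0.0526 to 0.123), with only these groups in the fit (0.0808) or with the authors' p-values (0.0537). The order of the group means was thus another than for Col1a1, which was lowest in human APE1. For Col3a1 the order of the 2 lines rests on this small difference.

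The promoters of Col1a2 and Col3a1 are shown because these chains moved in opposite directions in mouse Ape1. Each sequence holds the 250 bases before the RefSeq start site and the 30 after it in the build GRCm38.p6 (Col1a2, chr6:4505368-4505647, plus strand; Col3a1, chr1:45311288-45311567, plus strand). The table of promoters matched 35 of the 43 genes and 11 of the 14 that passed. Capitals mark the 4 motifs searched on both strands, with TATAAA for the TATA box, CCAAT for the box bound by NF-Y, GGGCGG for the GC box bound by Sp1 and TGANTCA for the AP-1 site. Positions count from 1 at the start site, with −1 the base before it.
Col1a2: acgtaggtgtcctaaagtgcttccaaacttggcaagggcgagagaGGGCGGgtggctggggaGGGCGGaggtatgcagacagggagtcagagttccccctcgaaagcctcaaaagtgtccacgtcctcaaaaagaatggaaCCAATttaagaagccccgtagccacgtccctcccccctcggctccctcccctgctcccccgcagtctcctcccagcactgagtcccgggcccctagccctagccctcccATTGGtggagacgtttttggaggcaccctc
Col3a1: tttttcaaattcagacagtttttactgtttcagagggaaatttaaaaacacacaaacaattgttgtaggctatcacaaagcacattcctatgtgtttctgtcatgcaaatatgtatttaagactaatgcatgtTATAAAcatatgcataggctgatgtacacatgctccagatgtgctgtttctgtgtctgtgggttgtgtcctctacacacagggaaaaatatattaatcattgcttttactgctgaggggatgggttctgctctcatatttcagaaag
The Col1a2 window holds 2 GC boxes and 2 CCAAT boxes, 1 of them on the reverse strand at the start site, and 61.1% of its bases are G or C. The Col3a1 window holds a TATAAA at position −117, none of the other 3 motifs, and 36.1% G or C. Over all 32851 windows of the same length, 13.1% hold TATAAA, 36.1% CCAAT, 34.7% GGGCGG and 7.46% TGANTCA. Of the 11 windows of genes that passed, 1, 6, 9 and 1 hold them. Windows of collagen genes without a call were not counted, so these shares are not read as particular to genes that passed. A match is only a string of letters and was not tested as a site.

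Type V collagen is a minor fibril component that limits fibril width, made mostly from Col5a1 with Col5a2. Col5a2 read 8.60, 8.54 and 8.56 in vector control, 9.42, 9.26 and 9.25 in human APE1 and 8.72, 8.59 and 8.69 in mouse Ape1. Human APE1 stood above both other groups, which overlapped each other. It was 1.67-fold higher in human APE1 than in vector control (0.74, SE 0.07, adjusted p = 0.000369) and 1.56-fold higher than in mouse Ape1 (0.64, adjusted p = 0.000609). Mouse Ape1 differed from vector control by 0.10 (95% interval −0.06 to 0.26).

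Col5a1 went the other way in the human APE1 line in its brighter cluster, while its dimmer cluster gave −0.06 without a call (adjusted p = 0.746). Values of the brighter cluster were 8.77, 8.79 and 8.87 in vector control, 8.62, 8.49 and 8.45 in human APE1 and 8.98, 8.88 and 8.99 in mouse Ape1. The lowest group was human APE1, and mouse Ape1 differed from vector control by 0.14 (95% interval −0.02 to 0.29). The fall against vector control was small (−0.29, SE 0.07, adjusted p = 0.0279) and did not pass when any 1 vector control array or human APE1 replicate 2 or 3 was left out (adjusted p = 0.0517 to 0.0907), nor with only these 2 groups in the fit (0.0706). Against mouse Ape1 it was −0.43 (adjusted p = 0.00424). Col5a1 minus Col5a2 within an array fell from 0.24 ± 0.07 (SD, n = 3) in vector control to −0.79 ± 0.02 in human APE1, and was 0.28 ± 0.03 in mouse Ape1. The change of −1.03 in human APE1 had a two-sided exact permutation p of 0.1, the smallest possible, and the groups did not overlap. Col5a3, a further chain of type V, ranged from 6.21 to 6.55 over all arrays and passed in no comparison.

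Col3a1 and Col5a2 are neighbours on chromosome 1 with no protein-coding gene between them in RefSeq. In human APE1 against vector control the former differed by −0.87 and the latter by 0.74. Their within-array difference fell by 1.61 in human APE1 and by 1.32 in mouse Ape1.

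Col11a1, a chain of the type XI collagen that nucleates fibrils in cartilage and other tissues, was dim. It read 5.68, 5.78 and 5.61 in vector control, 4.96, 5.10 and 5.18 in human APE1 and 5.20, 5.30 and 5.27 in mouse Ape1, with vector control above both. It was lower by 0.61 (SE 0.08, adjusted p = 0.00176) and 0.43 (adjusted p = 0.00655) on the log2 scale. Array values of dim transcripts can understate a change. Sox9, a transcription factor of cartilage cells, fell by 0.46 in human APE1 against vector control (adjusted p = 0.0147) and did not pass in mouse Ape1 against vector control; its part in this result was not tested. The other fibril-forming chains, Col2a1 (the cartilage collagen), Col11a2, Col24a1 and Col27a1, passed in no comparison.

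Col12a1 encodes the homotrimeric type XII collagen, which lies on the surface of type I fibrils and is known from tissues under load, such as tendon. It showed the largest differences of the 43 genes in human APE1 against vector control, in mouse Ape1 against vector control and between the 2 lines. It read 9.01, 9.04 and 9.24 in vector control, 5.90, 5.55 and 5.36 in human APE1 and 7.62, 7.52 and 7.48 in mouse Ape1. Vector control was highest, mouse Ape1 lay between and human APE1 was lowest, with wide gaps. Col12a1 was 11.2-fold lower in human APE1 (−3.49, SE 0.14, adjusted p = 4.63e-06) and 2.94-fold lower in mouse Ape1 (−1.56, SE 0.14, adjusted p = 0.000216). Human APE1 was 3.82-fold below mouse Ape1 (−1.93, adjusted p = 8.26e-05). The authors' deposited table gives a ratio of vector control over human APE1 of 9.85 for this gene and over mouse Ape1 of 2.99. The human APE1 mean of 5.61 lay below the mean of the median cluster, where a fold can be understated. Of the 8 other fibril-associated chains, among them Col9a1, Col9a2, Col9a3, Col14a1 and Col16a1, none passed in any comparison at an adjusted p under 0.05. Col14a1, the close relative of Col12a1, ranged from 4.55 to 4.88 over all arrays.

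Type VI collagen forms beaded filaments around cells from chains of Col6a1, Col6a2 and a further chain, usually Col6a3. Col6a1 read 10.43, 10.37 and 10.43 in vector control, 9.90, 9.77 and 9.84 in human APE1 and 9.75, 9.73 and 9.74 in mouse Ape1. Col6a2 followed with 8.95, 8.97 and 8.95 in vector control, 8.25, 8.06 and 8.28 in human APE1 and 8.10, 8.05 and 8.17 in mouse Ape1. Both chains were highest in vector control on every array. Col6a1 was lower by 0.57 in human APE1 (SE 0.06, adjusted p = 0.000538) and by 0.67 in mouse Ape1 (adjusted p = 0.000179). Another Col6a1 cluster, with values of 9.41 to 9.78, gave 0.11 and 0.02 without a call, and the average of its clusters gave −0.34 and −0.44 (adjusted p = 0.00955 and 0.00181). Col6a2 was lower by 0.76 (SE 0.07, adjusted p = 0.000486) and 0.85 (adjusted p = 0.000203). Neither passed between human APE1 and mouse Ape1, where the differences were 0.10 (95% interval −0.03 to 0.23) and 0.09 (95% interval −0.08 to 0.26). The within-array difference of Col6a1 minus Col6a2 rose by 0.19 in human APE1 and 0.18 in mouse Ape1, without overlap with vector control (two-sided exact permutation p = 0.1 each, the smallest possible).

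The genes Col6a1 and Col6a2 are neighbours on chromosome 10, with no protein-coding gene between them. Their promoters are shown because Col6a2 and the brightest Col6a1 cluster moved together (Col6a1, chr10:76726015-76726294, minus strand, and Col6a2, chr10:76623601-76623880, minus strand, in GRCm38.p6, same windows and capitals as above).
Col6a1: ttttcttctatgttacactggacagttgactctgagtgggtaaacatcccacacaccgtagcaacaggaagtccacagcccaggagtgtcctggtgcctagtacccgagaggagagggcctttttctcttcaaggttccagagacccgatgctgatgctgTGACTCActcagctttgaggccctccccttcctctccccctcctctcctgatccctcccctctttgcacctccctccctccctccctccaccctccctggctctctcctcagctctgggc
Col6a2: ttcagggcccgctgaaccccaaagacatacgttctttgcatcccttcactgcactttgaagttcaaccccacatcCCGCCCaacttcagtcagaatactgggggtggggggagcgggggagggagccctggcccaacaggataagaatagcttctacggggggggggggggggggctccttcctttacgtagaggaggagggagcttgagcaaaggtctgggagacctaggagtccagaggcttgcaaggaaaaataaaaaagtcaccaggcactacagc
The Col6a1 window holds an AP-1 motif at position −90 and none of the other 3 motifs. The Col6a2 window holds a single GC box on the reverse strand. No motif of the 4 stands in both windows.

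Col6a3, the usual partner of both, did not pass in any comparison. It read 5.48, 5.44 and 5.60 in vector control, 5.51, 5.53 and 5.44 in human APE1 and 5.44, 5.35 and 5.44 in mouse Ape1. The groups overlapped, and the difference from vector control was −0.01 in human APE1 (95% interval −0.16 to 0.13) and −0.10 in mouse Ape1 (95% interval −0.24 to 0.05). The cluster lay below the median cluster, so a change of the mRNA may be compressed. Col6a4, Col6a5 and Col6a6, which lie next to each other on chromosome 9, encode chains that can take the place of Col6a3. Of these Col6a4 passed in mouse Ape1 against vector control (−0.38, SE 0.10, adjusted p = 0.0354). In human APE1 against vector control Col6a4 gave −0.325 (95% interval −0.55 to −0.10, adjusted p = 0.0745). There Col6a4 passed without vector control replicate 2 and with the clusters of each symbol averaged. It read 5.42, 5.22 and 5.56 in vector control, 5.00, 5.11 and 5.11 in human APE1 and 4.91, 5.05 and 5.11 in mouse Ape1, all dim. The call in mouse Ape1 was lost when vector control replicate 1 or 3, human APE1 replicate 2 or any 1 mouse Ape1 array was left out (adjusted p = 0.055 to 0.119). It was also lost with only mouse Ape1 and vector control in the fit (0.0756). Col6a5 ranged from 4.15 to 4.5 and Col6a6 from 5.69 to 6.05, without a call.

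Type IV collagen, the sheet of basement membranes, is made from chains whose 6 genes lie head to head in 3 pairs. Col4a1 and Col4a2 together form the most common trimer. Col4a1 read 9.30, 9.36 and 9.35 in vector control, 9.15, 9.20 and 9.20 in human APE1 and 9.66, 9.65 and 9.58 in mouse Ape1. The highest group was mouse Ape1 and the lowest human APE1, and the groups did not overlap. It was higher in mouse Ape1 than in vector control by 0.30 (SE 0.05, adjusted p = 0.00671), and human APE1 lay 0.45 below mouse Ape1 (adjusted p = 0.00105). Human APE1 against vector control gave −0.15 (adjusted p = 0.117), and Col4a1 passed there with dim clusters left out, with eBayes with trend and robust and with the p-values of the authors' deposited table (0.0128 after adjustment).

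Col4a2 read 9.05, 8.98 and 9.01 in vector control, 8.41, 8.41 and 8.61 in human APE1 and 9.0, 8.95 and 9.01 in mouse Ape1. Human APE1 was lowest, and the other groups overlapped. It was 1.45-fold lower in human APE1 than in vector control (−0.54, SE 0.07, adjusted p = 0.00205) and lower than in mouse Ape1 (−0.51, adjusted p = 0.00204). Mouse Ape1 differed from vector control by −0.02 (95% interval −0.18 to 0.14). The within-array difference of Col4a1 minus Col4a2 was 0.32 ± 0.07 (SD, n = 3) in vector control, 0.71 ± 0.10 in human APE1 and 0.64 ± 0.07 in mouse Ape1. It rose in both lines without overlap with vector control, by 0.39 and 0.32 (two-sided exact permutation p = 0.1 each, the smallest possible), while the 2 lines overlapped each other (p = 0.4).

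The promoters of this pair are shown because the 2 genes start 21 bases apart in RefSeq, on opposite strands, and their windows share 38 bases (Col4a1, chr8:11312797-11313076, minus strand; Col4a2, chr8:11312555-11312834, plus strand; GRCm38.p6).
Col4a1: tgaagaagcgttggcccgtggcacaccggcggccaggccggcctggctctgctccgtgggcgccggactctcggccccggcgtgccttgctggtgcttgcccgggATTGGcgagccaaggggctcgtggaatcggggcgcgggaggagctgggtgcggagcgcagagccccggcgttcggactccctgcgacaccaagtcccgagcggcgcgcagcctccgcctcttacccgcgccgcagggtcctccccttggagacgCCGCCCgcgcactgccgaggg
Col4a2: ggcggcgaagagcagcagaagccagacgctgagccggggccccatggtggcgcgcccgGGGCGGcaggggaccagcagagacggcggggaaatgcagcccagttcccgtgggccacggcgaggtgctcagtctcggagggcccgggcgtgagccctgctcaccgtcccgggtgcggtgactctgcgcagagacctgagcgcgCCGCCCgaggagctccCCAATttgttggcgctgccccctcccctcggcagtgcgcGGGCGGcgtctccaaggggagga
Both windows are rich in G and C (74.6% and 73.6%), and both hold a CCAAT box and at least 1 GC box. A single GC box in the shared bases appears in both windows, at position 10 of Col4a1 on the reverse strand and at position 8 of Col4a2 on the forward strand.

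Col4a5 and Col4a6, the pair on the X chromosome, start 1343 bases apart. Col4a5, a chain of the kidney and skin basement membrane, read 7.40, 7.31 and 7.40 in vector control, 7.85, 7.58 and 7.78 in human APE1 and 8.61, 8.50 and 8.59 in mouse Ape1. Mouse Ape1 was highest, human APE1 lay between, and no groups overlapped. It was 2.29-fold higher in mouse Ape1 than in vector control (1.20, SE 0.08, adjusted p = 5.53e-05), and human APE1 lay below mouse Ape1 by 0.83 (adjusted p = 0.000396). In human APE1 the rise was 0.36 (SE 0.08, adjusted p = 0.022). It did not pass after array medians were subtracted (0.0612), with only these 2 groups in the fit (0.0667), or when any 1 vector control array or human APE1 replicate 1 or 3 was left out (adjusted p = 0.0524 to 0.073). Col4a6 ranged from 5.36 to 5.62 over all arrays and passed in no comparison. Mouse Ape1 against vector control gave 0.05 for it (95% interval −0.12 to 0.23), and the within-array difference of Col4a5 minus Col4a6 rose by 1.14. The last pair, Col4a3 and Col4a4, ranged from 5.17 to 5.80, with means below the median cluster, and passed nowhere.

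**Figure D3:**
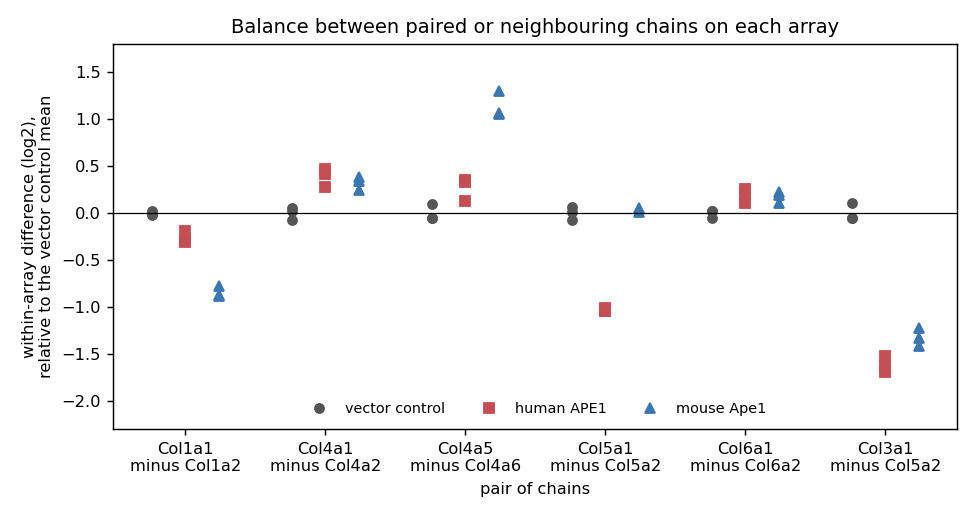
Log2 value of the former minus that of the latter chain on each array, set to 0 at the vector control mean (vertical axis), for 6 pairs of chains (horizontal axis), with 1 point per array. Col5a1 minus Col5a2 drops by 1.03 in human APE1 (red squares) and not in mouse Ape1 (blue triangles), and Col1a1 minus Col1a2 drops by 0.84 in mouse Ape1.

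Type VIII collagen is a short-chain network former of vessel walls and of the cornea. Col8a1 read 8.79, 8.80 and 8.69 in vector control, 8.50, 8.46 and 8.72 in human APE1 and 9.93, 9.86 and 9.82 in mouse Ape1. All 3 mouse Ape1 arrays lay above the 6 others, and the other groups overlapped. It was 2.16-fold higher in mouse Ape1 than in vector control (1.11, SE 0.08, adjusted p = 9.43e-05) and 2.48-fold higher than in human APE1, which lay 1.31 below (adjusted p = 5.32e-05). Its partner Col8a2 was dim, with a range from 4.97 to 5.71. Human APE1 minus mouse Ape1 gave 0.47, with an adjusted p of 0.0691, and passed after array medians were subtracted, with quantile normalization run again, without human APE1 replicate 3 and with the clusters of each symbol averaged. Col10a1, the marker of hypertrophic cartilage, ranged from 4.83 to 5.33 without a call.

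The remaining classes gave no call. They are the membrane-spanning Col13a1, Col17a1, Col23a1 and Col25a1, the anchoring fibril chain Col7a1, Col28a1, and the multiplexins Col15a1 and Col18a1, the latter a basement membrane proteoglycan whose end fragment is endostatin. Col18a1 was nearest to a call in mouse Ape1 against vector control, at 0.38 (95% interval 0.12 to 0.63, adjusted p = 0.053). It read 6.16, 6.32 and 6.31 in vector control and 6.64, 6.69 and 6.59 in mouse Ape1, without overlap. It passed with dim clusters left out, with only these groups in the fit, without human APE1 replicate 2 or 3 and with the clusters of each symbol averaged. Over the 29 genes without a call, differences ran from −0.24 to 0.39 in human APE1 and from −0.35 to 0.38 in mouse Ape1 against vector control. Their 95% intervals reached from −0.51 to 0.71 and from −0.67 to 0.63 on the log2 scale. For 15 of the 43 genes an identical deposited value stood on at least 3 of the 9 arrays, up to 6 times for 1 gene, and only 1 of these 15, Col6a4, passed a test.

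For 3 genes more than 1 transcript cluster was measured. The dimmer cluster of Col1a2 gave −1.04 (adjusted p = 0.0108) in human APE1 and 0.39 (adjusted p = 0.234) in mouse Ape1 against vector control, beside −0.68 and 0.52 in the brighter one. The dimmer cluster of Col5a1 gave −0.06 (adjusted p = 0.746) and −0.09 (adjusted p = 0.594), and with both clusters averaged the call for Col5a1 in human APE1 was lost (−0.18, adjusted p = 0.124), as was that against mouse Ape1 (−0.20, adjusted p = 0.0808). Of the 3 clusters of Col6a1, the dimmest fell like the brightest (−0.54 and −0.67), while the other gave 0.11 (95% interval −0.10 to 0.31) and 0.02 (95% interval −0.18 to 0.22). The clusters of Col6a1 therefore disagree. The exons covered by each cluster were not analysed here.

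**Figure D4:**
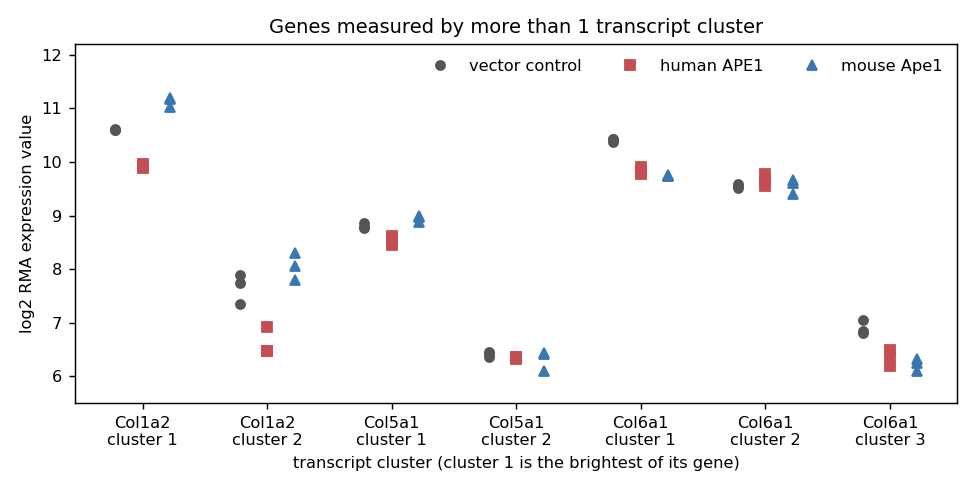
Log2 RMA expression values (vertical axis) of every transcript cluster of Col1a2, Col5a1 and Col6a1 (horizontal axis, brightest cluster of each gene first), 1 point per array. The middle cluster of Col6a1 shows 9.41 to 9.78 in all groups, while its other clusters are lower in human APE1 and mouse Ape1 than in vector control.

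Genes that make, export and assemble collagen were counted as lists of known roles. The counts of each list stand against 11.8%, 16.2% and 12.4% of all clusters that passed in the 3 comparisons, and 21.0%, 27.9% and 22.2% of those at or above the median, and nothing particular to a list is read from them. Of 20 genes for hydroxylation, glycosylation and folding, 1 rose and 12 fell in human APE1 against vector control, with a median difference of −0.33, and 1 rose and 5 fell (P4ha3, P3h2, Fkbp14, Plod2 and P4ha2) in mouse Ape1, with a median of 0.00. The gene that rose was P4ha1, a prolyl hydroxylase subunit, in both comparisons (0.24 and 0.33). The lysyl hydroxylase Plod2, whose product sets the kind of cross-link, fell in human APE1 (−0.65, adjusted p = 0.000187) and in mouse Ape1 (−0.52, adjusted p = 0.000437). The prolyl hydroxylase subunit P4ha3 fell in human APE1 (−0.65, adjusted p = 0.00328) and in mouse Ape1 (−2.42, adjusted p = 4.14e-06). P3h2, a prolyl 3-hydroxylase of basement membrane collagen listed under its older name Leprel1, fell in both lines (−0.77 in human APE1 and −1.45 in mouse Ape1). The chaperone Serpinh1 fell by 0.32 in human APE1 (adjusted p = 0.01).

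Of 10 export genes, counted by symbol, 0 rose and 4 fell in human APE1 (Sec24d, Sec23a, Ctage5 and Sec13). In mouse Ape1 3 rose (Ctage5, Sec23a and Sec31a) and 3 fell (Sec24d, Sec13 and Mia3). Sec23a, a coat protein of the vesicles that leave the endoplasmic reticulum, fell by 0.70 in human APE1 (adjusted p = 0.00023) and rose by 0.35 in mouse Ape1 (adjusted p = 0.00463). Ctage5, a partner of the collagen cargo receptor, fell by 0.47 and rose by 0.48. Of 8 genes for propeptide removal, 1 rose (Pcolce) and 2 fell (Tll1 and Adamts2) in human APE1, and 3 rose (Tll1, Pcolce and Bmp1) and 2 fell (Adamts3 and Adamts2) in mouse Ape1. Tll1, a relative of the C-propeptidase Bmp1, fell by 0.90 (adjusted p = 6.08e-05) in human APE1 and rose by 2.62 (adjusted p = 1.86e-07) in mouse Ape1. Pcolce, the enhancer of that cleavage, rose by 0.34 and 0.44.

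Among 16 genes for cross-linking and fibril assembly, 2 rose (Loxl4 and Aebp1) and 6 fell in human APE1, and 3 rose (Loxl4, Sparc and Bgn) and 6 fell in mouse Ape1. Lox, which cross-links collagen, fell in human APE1 (−1.45, adjusted p = 3.8e-05) and in mouse Ape1 (−2.70, adjusted p = 1.34e-06). Dcn, the proteoglycan decorin that coats fibrils, fell in both lines (−3.06 in human APE1 and −3.29 in mouse Ape1). Thbs2, a matricellular protein that acts on fibril shape, fell in both lines (−1.32 in human APE1 and −2.67 in mouse Ape1). Ogn, osteoglycin, a small proteoglycan of the decorin family, fell by 1.19 in mouse Ape1. Of 10 collagen receptors, 1 rose (Ddr2) and 3 fell (Itga1, Itgb1 and Mrc2) in human APE1, and 0 rose and 2 fell (Itga1 and Ddr2) in mouse Ape1. Itga1, the integrin chain that binds type IV and type I collagen, fell in both lines (−0.99 in human APE1 and −0.90 in mouse Ape1). Ddr2, a receptor kinase for fibrillar collagen, rose by 0.28 in human APE1 and fell by 0.22 in mouse Ape1. Of 10 genes of collagen cleavage and clearance, Mmp2 fell in human APE1 (−0.43, adjusted p = 0.00703) and Mmp16 rose in mouse Ape1 (0.77, adjusted p = 0.000905), with no other call against vector control. Between human APE1 and mouse Ape1, the 6 lists gave 2 higher and 7 lower, 0 and 5, 0 and 2, 4 and 5, 1 and 2, and 0 and 2 calls, in the order given here.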

How the data were processed

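The labels number 3 dishes for each of 3 lines, and samples were grouped by their titles. Cells grew to semi-confluency in 60 mm dishes, per the labels' protocols. The deposited array values are log2 RMA expression values made with Expression Console for core exons, per the labels. RMA gives all arrays like distributions, and a change common to most RNAs would therefore not show. The authors' table gives, per the file headers, log2 group means, linear ratios of groups and unadjusted p-values. Its shorter version, per the file headers with a step-up p-value, holds 7115 transcript clusters, 14 of the 43 collagen genes among them. The submitters' processing notes name Partek, with version, array design and genome build all not given in the sources used here.

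Values were used as deposited. All 41345 transcript clusters were fitted in R 4.3.3 with limma 3.58.1 (lmFit, eBayes, two-sided) as 3 group means over 9 arrays, with 6 residual degrees of freedom and 2.07 from the prior, and p-values were adjusted by Benjamini-Hochberg over all clusters in each comparison. The median SE of a difference was 0.106, and the number of arrays limits the precision. Arrays of 1 group correlated at r = 0.990 to 0.993 across clusters (9 pairs) and arrays of different groups at 0.977 to 0.987 (27 pairs). The same fit was tested on simulated data. Promoters and gene order came from RefSeq tables of GRCm38.p6. Other work used Python 3.11.15, pandas 2.3.3, numpy 2.4.6, scipy 1.17.1 and matplotlib 3.10.9.

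The members, gene lists and tests were chosen with earlier results of these data known. Named were all chains of types I, III, V, VI and XII, the type IV pairs, the 10 largest rises and 10 largest falls per comparison among genes that passed without overlap, and up to 4 genes per list and comparison. Genes named because they came close to a call were chosen after their values were seen. Equal replicate numbers did not pair the arrays. The marker lists for bone, epithelial, endothelial, macrophage, and neural and glial cells are given with the other observations.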

Additional observations from a re-analysis of the deposited data

How the results depend on the processing

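The alternatives were array medians subtracted, quantile normalization run again, dim clusters left out, eBayes with trend and robust, only the 2 groups compared in the fit, the replicate number as a block, each array left out, all clusters of a symbol averaged, and, added after the data were seen, the p-values of the authors' deposited table. The number of collagen genes that passed stayed within 1.5 times its value under all of these in the 3 comparisons and in the F-test. With 1 array left out it was 9 to 11 in human APE1 against vector control, 10 to 12 in mouse Ape1 against vector control, 9 to 10 between human APE1 and mouse Ape1 and 13 to 14 in the F-test. Over all transcript clusters the counts were then 3185 to 4776, 4433 to 6772 and 3691 to 4892, against 4859, 6681 and 5130 on all arrays, with the lowest counts without human APE1 replicate 1 (3185) or 2 (3203) and without mouse Ape1 replicate 1 (4433). Values of single genes that had passed were followed under these alternatives, and those of pairs under quantile normalization alone. Of these values, 526 kept their call or moved by less than 1 SD, 33 lost their call and 0 changed direction. Calls gained under an alternative could not enter this tally. Gained were Col4a1, Col6a4, Col8a1 and Col20a1 in human APE1 and Col18a1 in mouse Ape1 against vector control, and Col8a2 between the lines. The lost calls were those of Col4a5 and Col5a1 in human APE1, Col6a4 in mouse Ape1, and Col3a1 and Col5a1 between human APE1 and mouse Ape1, and the cause was not tested. Samples with equal replicate numbers shared only a number (correlation of deviations −0.075 to 0.104). With the replicate number as a block, 11, 11 and 10 collagen genes passed in the 3 comparisons and 13 in the F-test, and 3747, 5569 and 4162 of all clusters. Under the block Col5a1 no longer passed in human APE1 against vector control (adjusted p = 0.0652), and Col20a1 passed in its place. When dim clusters were left out, no value could be had for Col11a1 and Col6a4, and the fit of only 2 groups gives none for the F-test. Signal over background limits what can be said of the 16 genes below the median cluster.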

Other observations

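Emid2, the older symbol of the gene now named Col26a1 in RefSeq, does not match the naming rule and was looked up separately. It read 6.89, 6.73 and 6.61 in vector control, 6.73, 6.90 and 6.73 in human APE1 and 6.73, 6.52 and 6.74 in mouse Ape1, with overlapping groups and no call in human APE1 against vector control (adjusted p = 0.836), mouse Ape1 against vector control (0.672) or between both lines (0.526). Its collagen-like protein is known from reproductive tissue.

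Markers of other cell types stood as follows against the median cluster. Of 7 bone markers, 2 were at or above it, and array means were 5.40 to 5.58 in vector control, 5.55 to 5.63 in human APE1 and 5.80 to 5.83 in mouse Ape1. Phex, an endopeptidase of bone cells, was higher in mouse Ape1 than in vector control by 2.27 (adjusted p = 6.95e-05), and Alpl, alkaline phosphatase, by 0.48. Runx2, the transcription factor of early bone cells, passed between human APE1 and mouse Ape1 (0.26, adjusted p = 0.0498), while Sp7, Bglap, Ibsp, Dmp1 and Alpl were below the median cluster. Of 8 epithelial markers 3 were at or above it and none passed in any comparison. Of 6 endothelial markers 2 were, and Cdh5 was higher by 0.32 in mouse Ape1. Of 6 macrophage markers 2 were, and Cd14 fell by 0.66 in human APE1 and by 0.94 in mouse Ape1. Of 7 neural and glial markers 3 were, and Tubb3, a neuronal tubulin, fell by 1.69 in human APE1, while Map2, a neuronal microtubule protein, was higher by 0.54 in mouse Ape1. The part of these values in the collagen results was not tested.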
